A study of Mus musculus with 2 samples.

Results

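The genes described here are 35 named genes of muscle: sarcomere proteins, smooth muscle contractile proteins, proteins of the calcium store, muscle enzymes and hormones, and regulators of the muscle programme. Many of them are classical targets of MEF2 factors in muscle, and the question was which of them could be detected at all in myeloid cells that carry an active MEF2C. Members were found by the gene name printed for each probe on the array, and 34 of the 35 were found that way among 27912 named genes, with 66 probes on 120 spots. Xirp1, an actin-binding repeat protein of muscle cell junctions, was not found under its own name and is given separately below.

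Both cultures were of M/E cells (bone marrow cells of the mouse that the fusion gene MLL/ENL had immortalised) and shared the genotype Mef2c del/-. The MEF2C-ASR culture carried a retroviral vector whose insert is an always active Mef2c with mutated histone deacetylase binding. The control culture carried the empty vector MYs-iPAC, and according to the labels its cells express no functional Mef2c. Both cultures were puromycin-selected and grown in medium with IL3, IL6 and GM-CSF at 10 ng/ml each and SCF at 100 ng/ml, and RNA harvested 6, 24 and 48 h after seeding was pooled. Each culture gave 1 pooled RNA and 1 array, so no difference below has a biological replicate or a p-value. The sources used here do not give the promoter that drives the insert, the number of clones in a culture or the deleted part of Mef2c.

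MEF2 proteins bind AT-rich DNA sites and switch on contractile genes in skeletal, heart and smooth muscle, usually together with myogenic bHLH factors such as MyoD and myogenin, or with SRF, which binds CArG boxes. Class IIa histone deacetylases bind MEF2 and hold its targets silent. In blood cells MEF2C acts in lymphoid and myeloid progenitors, where the sarcomere is not built.

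To show where such sites lie, the stretch from 250 bases before to 50 after each annotated start was searched on both strands in the RefSeq promoter table of build GRCm38.p6. It held 29 of the 35 members among 27025 genes, and a gene with several starts counts as matched if any of its stretches matches, for members and all genes alike. Myom2, Myod1, Myoz1, Xirp1, Jph1 and Tagln had no entry in it. A MEF2 consensus match was found for 3 of the 29 members (10.3%), against 3.7% of all genes in the table, and a related form, CTA and TAG with any 4 bases between them, for 4 (13.8%), against 4.23%. The matches of Myoz2 and Ttn are the same bases under both forms. A CArG box was found for 5 members (17.2%), against 1.81% of all genes. TATAAA was found for 8 members (27.6%), against 15.7%, and the E box CAGCTG, a site for myogenic bHLH factors, for 15 (51.7%), against 18.3%. The stretches that hold the MEF2 consensus and the CArG boxes are printed here because these motifs are the textbook link between the members and MEF2 or SRF. Capitals mark the motif, and each sequence reads 5′ to 3′ along the gene's strand.
Casq2, MEF2 consensus, chr3:102086311-102086390, plus strand: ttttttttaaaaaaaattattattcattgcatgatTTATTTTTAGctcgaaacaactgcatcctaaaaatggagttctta
Ttn, MEF2 consensus, chr2:76982669-76982748, minus strand: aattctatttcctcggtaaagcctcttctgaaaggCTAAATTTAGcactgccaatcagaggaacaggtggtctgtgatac
Myoz2, MEF2 consensus, chr3:123034988-123035055, minus strand: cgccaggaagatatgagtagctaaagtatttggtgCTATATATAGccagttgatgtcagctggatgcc
Acta1, CArG box, chr8:123894804-123894883, minus strand: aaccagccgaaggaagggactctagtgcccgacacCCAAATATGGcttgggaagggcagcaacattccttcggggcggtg
Actc1, CArG box, chr2:114052878-114052957, minus strand: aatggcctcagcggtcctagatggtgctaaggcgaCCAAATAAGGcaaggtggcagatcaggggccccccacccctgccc
Myl3, CArG box, chr9:110763558-110763637, plus strand: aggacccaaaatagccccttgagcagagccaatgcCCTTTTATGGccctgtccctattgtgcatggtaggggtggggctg
Ldb3, CArG box, chr14:34588672-34588751, minus strand: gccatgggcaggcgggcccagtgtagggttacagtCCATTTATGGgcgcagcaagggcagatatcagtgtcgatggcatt
Myom1, CArG box, chr17:71019423-71019502, plus strand: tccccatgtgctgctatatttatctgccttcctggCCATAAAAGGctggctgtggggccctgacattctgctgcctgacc
Of the 3 genes with the MEF2 consensus, Ttn was detected on both arrays, Casq2 on the MEF2C-ASR array alone and Myoz2 on neither. Of the 5 with the CArG box, Acta1, Actc1, Ldb3 and Myl3 were detected on both arrays and Myom1 on neither. Over all genes, 59.9% were detected on both arrays, 8.01% on the MEF2C-ASR array alone and 31.5% on neither. Ttn detection rests on 2 of its 9 probes. Casq2 was detected on neither array when the control array's detection limit, given below, was required on both arrays. A link between these motifs and detection was not tested. A match describes these letters only, and MEF2 sites outside the windows were not searched.

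A gene was counted as detected where the scanner software marked at least 1 of its probes as well above background. By that mark, 25 members were detected on the MEF2C-ASR array, against a background of 67.9% of all genes, and 19 on the control array, against 60.5%. Both arrays detected 19 members (background 59.9%), the MEF2C-ASR array alone 6 (background 8.01%), the control array alone 0 (background 0.613%) and neither array 9 (background 31.5%). The 6 were Jph1, Jph2, Casq2, Myl2, Myom2 and Myog, and the 9 were Tnnt2, Myh6, Myl1, Myom1, Myoz2, Des, Casq1, Cav3 and Mb. By probe, 59.1% of member probes were well above background on the MEF2C-ASR array and 42.4% on the control array, against 67.3% and 59.9% of all 41085 probes. By gene, detection of the 34 members thus lay near that of all genes on each array, and by probe it was lower, while the 6 seen with MEF2C-ASR alone were a larger share than among all genes.

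The arrays did not see equally far down. The lowest processed signal called well above background was 20.0 on the MEF2C-ASR array and 38.3 on the control array. The 153 negative control spots had an SD of 3.08 with MEF2C-ASR and 15.5 with control, and highest values of 24.6 and 165.9. Where the control array's limit was required on both arrays, a setting chosen after the data had been seen, 22 members were detected on the MEF2C-ASR array and 19 on the control array (all genes 61.1% and 60.5%). Under that limit Jph1, Myl2 and Myog were still detected on the MEF2C-ASR array alone, while Jph2, Casq2 and Myom2 were not detected. The detection limit thus moved with the number of members detected on the MEF2C-ASR array alone, and its part was not tested beyond this setting.

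**Figure D1:**
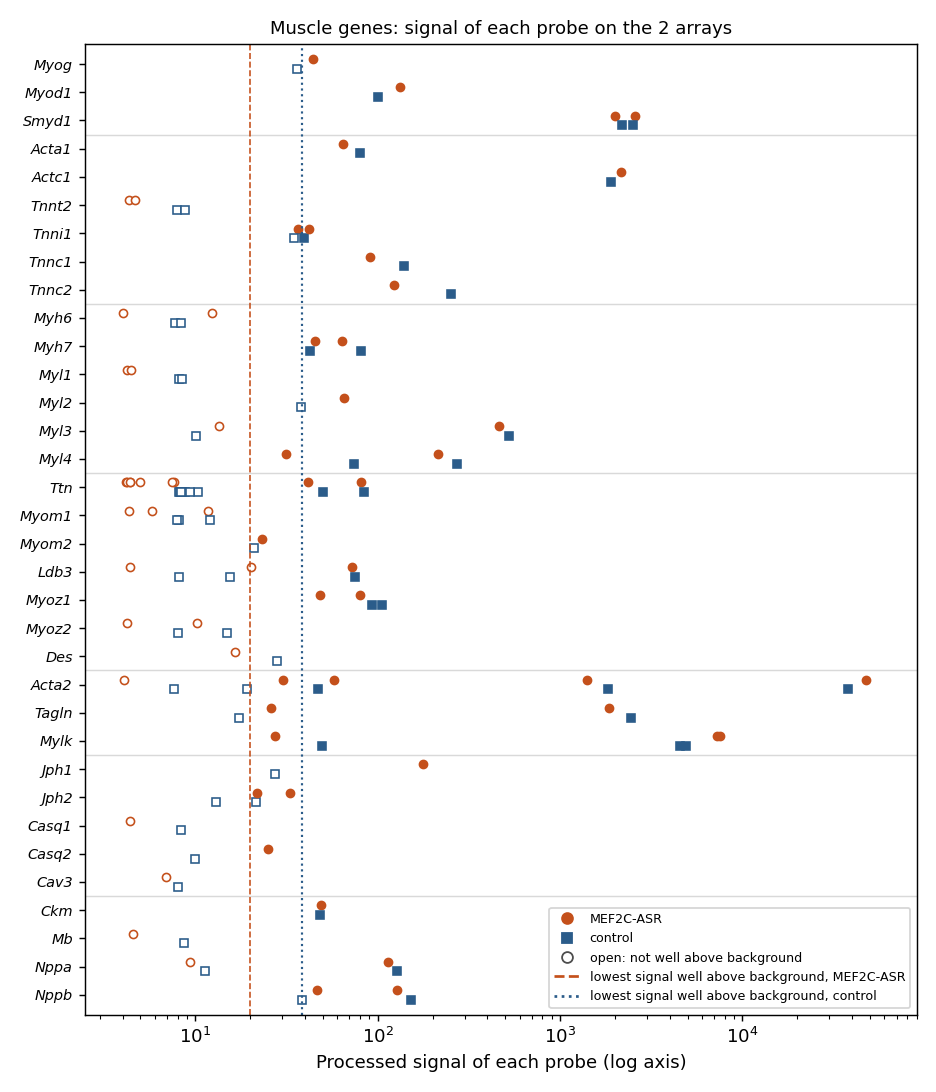
Processed signal (log axis) of each of the 66 member probes, with MEF2C-ASR as orange circles just above control as blue squares, in order of role from regulators to hormones. Open symbols are not well above background, and the vertical lines are the lowest signals called well above background, 20.0 on the MEF2C-ASR array and 38.3 on the control array. Most filled symbols lie close to these lines, while Smyd1, Actc1, Acta2, Tagln and Mylk have probes over 1000.

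Differences were taken as log2 of the signal after each array was set to its 75th percentile, as MEF2C-ASR minus control, and probes well above background on both arrays count as measured. The error available is that of spotting, from probes printed 10 times: the SD of a difference between single spots was 0.28 under a signal of 100, 0.19 between 100 and 1000 and 0.06 above 1000. It leaves out the spread between cultures, and it sets a lower bound on the true error. Of the 19 measured members, 0 were at least 2-fold higher, where 1.75% of 16696 measured genes were, and 0 at least 2-fold lower, where 1.92% were. Their median difference was -0.12, with a range of -0.99 to 0.44, beside -0.03 over all measured genes. Differences above 0 were seen for 5 members and below 0 for 14, and 78.9% of the members lay within 1.5-fold, against 90.4% of all measured genes. With the spike-in spots set to 0, which moved the median of all genes to -0.18, the split was 3 above and 16 below. The median of all measured genes was thus below 0 in both settings as well. Their split by sign was not counted, so the split of the members is not shown to be particular to them.

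**Figure D2:**
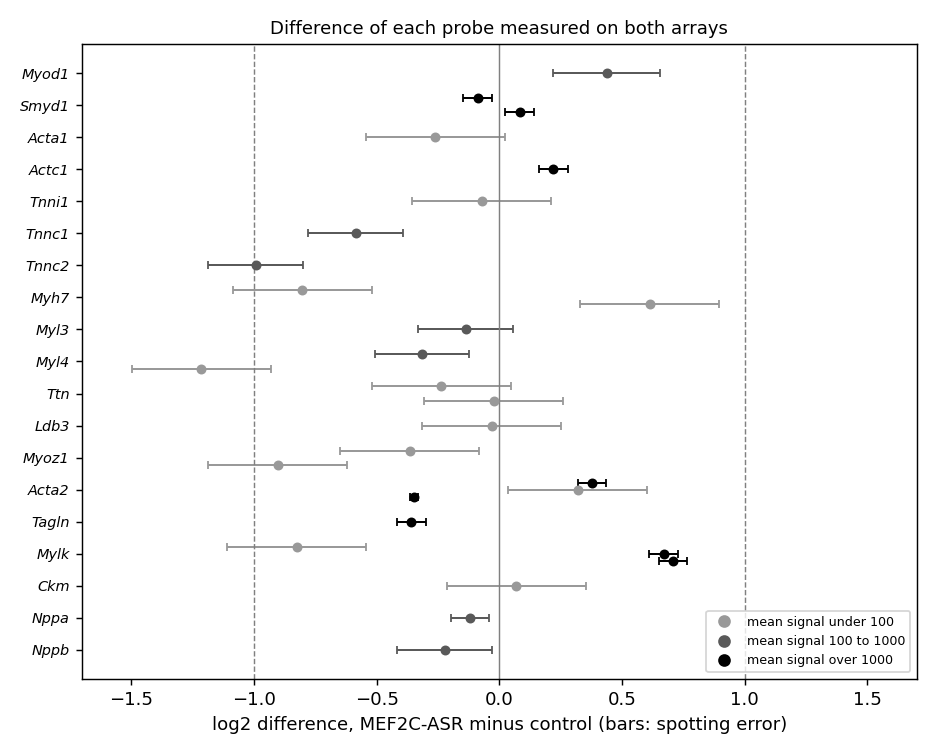
Log2 difference (MEF2C-ASR minus control) of each of the 28 measured member probes, shaded by mean signal. Bars are 1 SD of a difference between single spots of that signal class or, for the probes printed 10 times, the SE over their spots. All but a Myl4 probe at -1.22 lie inside the dashed 2-fold lines, and the probes of Smyd1, Myh7, Acta2 and Mylk lie on both sides of 0.

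Among the regulators, the brightest were the probes of Smyd1, a muscle histone methyltransferase and sarcomere chaperone partner. Its 2 probes gave signals of 2584 and 2002 on the MEF2C-ASR array, against 2503 and 2184 on the control array, and their mean difference was 0.00. The targets of the 2 probes share 39 of 60 bases, so they are not independent readings. Both arrays thus held Smyd1 signal far above background, and it hardly differed between them.

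Myod1, the bHLH factor that commits cells to skeletal muscle, was read by 10 spots with a lowest, median and highest signal of 91.8, 131 and 164 on the MEF2C-ASR array, against 45.0, 120 and 195 on the control array. The spots overlapped widely, and the difference of 0.44 had an SE of 0.22 over spots. Myog, myogenin, which acts after MyoD in muscle differentiation, gave 33.0, 46.7 and 62.1 over 8 spots of the MEF2C-ASR array, against 25.3, 38.7 and 41.4 on the control array. All 8 Myog spots were well above background on the MEF2C-ASR array and 2 of them on the control array, and the spots overlapped. A difference against an array with no detection is a bound, taken against the higher of that array's detection limit and the probe's own level. Such a bound leaves out the spotting error. For Myog it was 1.18-fold higher with MEF2C-ASR (0.24 on the log2 scale), where the plain difference was 0.33 with an SE of 0.14 over spots. With overlapping spots, this bound is not a minimum rise, and it was not recomputed under the other settings.

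**Figure D3:**
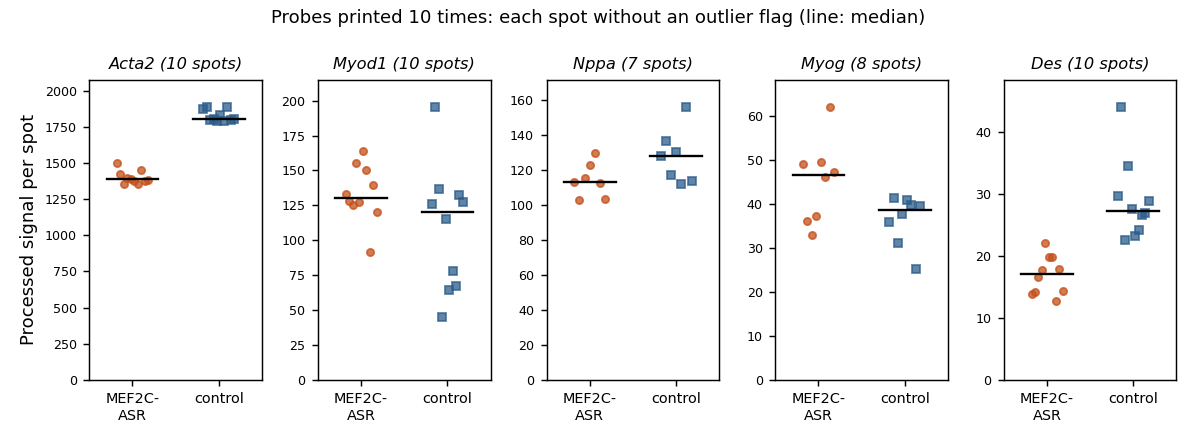
Processed signal of every spot kept for 5 member probes printed 10 times (linear axes from 0, MEF2C-ASR left, control right, line at the median). The spots of Acta2 and Des separate the arrays, with medians of 1388 and 1806 for Acta2 and of 17.1 and 27.2 for Des, while those of Myod1, Nppa and Myog overlap.

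The thin filament is made of actin, tropomyosin and the troponins that make it answer to calcium. Actc1, the cardiac actin, gave a signal of 2166 on the MEF2C-ASR array and 1907 on the control array, a difference of 0.22. Acta1, the skeletal actin, gave 64.9 with MEF2C-ASR and 79.8 with control, a difference of -0.26 that was within the spotting SD of dim probes. Actins are nearly identical in their coding sequence, and the files hold no probe sequences, so cross-hybridisation of non-muscle actin RNA to these probes was not tested.

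Tnnc2, the calcium sensor of fast skeletal muscle, showed the lowest difference of all measured members. Its single probe (chr2:164517815-164517874, in a build that the sources used here do not give) read 123.6 with MEF2C-ASR and 252 with control, a difference of -0.99 or 1.99-fold. It passed 2-fold in 2 of 11 other settings, with the spike-in spots and with the 75th percentile over probes well above background. It did not when the arrays were centred on the median of all spots, and it was -0.73 with another background correction. Tnnc1, the sensor of slow and heart muscle, read 91.1 with MEF2C-ASR and 140 with control, a difference of -0.59. Both troponin C genes were thus lower on the MEF2C-ASR array by more than the spotting SD.

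Tnni1, the inhibitory troponin of slow muscle, gave 36.6 with MEF2C-ASR and 39.5 with control on its measured probe, a difference of -0.07. Its other probe gave 42.1 with MEF2C-ASR and 34.99 with control and was well above background on the MEF2C-ASR array alone. Tnnt2, the tropomyosin-binding troponin of the heart, stayed at background with both of its probes on both arrays. Of the 6 thin filament members, 5 were detected on both arrays (59.9% of all genes), with a median difference of -0.26.

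The thick filament is built of myosin heavy chains that carry pairs of light chains. Myl3, the ventricular essential light chain, was read as 465.5 with MEF2C-ASR and 525 with control by its bright probe, a difference of -0.14, and as 13.5 and 10.1 by a probe at background. Myl4, the atrial essential light chain, gave 213 with MEF2C-ASR and 272 with control on one probe, and 31.3 with MEF2C-ASR and 74.6 with control on the other. Its 2 differences, -0.32 and -1.22, had 1 sign and a mean of -0.77, the second lowest of the measured members.

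Myh7, the slow and beta-cardiac myosin heavy chain, had 2 probes whose targets share 55 of 60 bases. One read 45.4 with MEF2C-ASR and 81.3 with control, the other 63.5 with MEF2C-ASR and 42.6 with control. The differences of -0.80 and 0.61 point opposite ways for nearly the same target, so the mean of -0.10 gives no direction for Myh7. The pair also shows how far dim probes can part: each difference is over 2 times the spotting SD of 0.28.

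Myl2, the ventricular regulatory light chain and a well-known MEF2 target in the heart, read 65.0 with MEF2C-ASR, well above background, and 38.1 with control, just under that array's limit. The bound was 1.74-fold higher with MEF2C-ASR (0.80 on the log2 scale), on 1 dim probe. It hardly differs from the plain difference of 0.81 and leaves out the spotting SD of 0.28. The Myl2 bound was not recomputed under the other settings. Myh6, the alpha-cardiac heavy chain, and Myl1, the fast skeletal essential light chain, were at background on both arrays with all of their probes. Of the 6 thick filament members, 3 were thus detected on both arrays, 1 with MEF2C-ASR alone and 2 on neither array (59.9%, 8.01% and 31.5% of all genes).

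Titin spans the sarcomere from Z disc to M band. Of the 9 Ttn probes, 2 were measured, with 81.3 for MEF2C-ASR against 84.7 for control on one and 41.7 against 50.4 on the other, and the mean difference was -0.13. The other 7 probes, which lie at other positions of the gene, were at background on both arrays. Ttn detection thus rests on 2 of its 9 probes.

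Ldb3, a Z disc protein that binds alpha-actinin, read 72.0 with MEF2C-ASR and 75.4 with control on its 1 measured probe of 3, a difference of -0.03. Myoz1, a calcineurin-binding Z disc protein of fast fibres, read 80.2 and 48.6 with MEF2C-ASR, against 106 and 93.1 with control. Its mean difference was -0.63 with both probes below 0. Myom2, an M band protein that ties myosin filaments, read 23.3 with MEF2C-ASR and 21.1 with control, so the MEF2C-ASR value lay above its own array's limit but under the limit of the other, and no fold is given.

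Des, which encodes the intermediate filament desmin, was below the detection mark on both arrays, with 1 of 10 spots well above background on each. Its spots had a lowest, median and highest signal of 12.6, 17.1 and 22.1 with MEF2C-ASR, against 22.5, 27.2 and 44.0 with control. They did not overlap, and each set lay under the highest negative control spot of its array, 24.6 with MEF2C-ASR and 165.9 with control. The median negative control spot read 4.31 with MEF2C-ASR and 8.17 with control. The part of the background in the separation of the Des spots was not tested. Myom1, a further M band protein, and Myoz2, the calcineurin-binding Z disc protein of heart and slow fibres, were at background with all of their probes.

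All 3 smooth muscle genes were detected on both arrays, as were 59.9% of all genes. Acta2, smooth muscle actin, had 5 probes that disagreed. The probe printed 10 times had a lowest, median and highest signal of 1353, 1388 and 1503 with MEF2C-ASR, against 1790, 1806 and 1889 with control, and its spots did not overlap, with a difference of -0.35 (SE 0.02 over spots). The brightest Acta2 probe went the other way, with 47729 for MEF2C-ASR against 37680 for control, a difference of 0.38, and its MEF2C-ASR spot carried a flag for an uneven local background.

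Another Acta2 probe gave 57.3 with MEF2C-ASR and 47.1 with control, the next 30.4 with MEF2C-ASR and 19.2 with control, detected on the MEF2C-ASR array alone, and the last was at background. The mean over the 3 measured probes was 0.12, and its sign turned when the spike-in spots set the scale and when the spot of uneven background was left out. These arrays thus give no direction for Acta2.

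Tagln, an actin-binding calponin-family protein of smooth muscle, read 1865 with MEF2C-ASR and 2451 with control on its bright probe, a difference of -0.36 with a spotting SD of 0.06. Its other probe gave 26.0 with MEF2C-ASR and 17.4 with control and was detected on the MEF2C-ASR array alone. Both of its signals lay under the control array's limit of 38.3, so no fold is given for it. The Tagln difference thus rests on the bright probe alone.

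Mylk encodes myosin light chain kinase, which starts smooth muscle contraction by phosphorylating the regulatory light chain and is also made by many non-muscle cells. Its 2 bright probes read 7576 and 7241 with MEF2C-ASR, against 4883 and 4545 with control, differences of 0.67 and 0.71 that are over 10 times the spotting SD of 0.06. The remaining Mylk probe, at a lower coordinate on chromosome 16, read 27.4 with MEF2C-ASR and 49.8 with control, a difference of -0.83. The mean over the 3 was 0.18, the value of the brightest probe 0.67, and whether the probes read different transcripts was not tested.

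The calcium store members hold the one change that passed 2-fold. Jph1, junctophilin-1, which ties the calcium store to the cell membrane in skeletal muscle, read 177 on the MEF2C-ASR array, well above background, and 27.4 on the control array, below its limit. It rose with MEF2C-ASR by at least 4.75-fold, a log2 bound of 2.25, on 1 probe (chr1:17186710-17186769, in the same unnamed build). Of the 2236 genes detected on the MEF2C-ASR array alone, 3.62% had a bound of at least 2-fold, and Jph1 was 1 among the 6 such members. The bound stayed past 2-fold in each of 11 other settings, from 1.39 with another background correction to 2.73 for the plain difference. Not all of these settings could move it. The choice of the brightest probe and the filter on level do not enter the bound, and the deposited intensity values gave the same median and counts as the main processing.

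Jph2, the junctophilin of heart muscle, read 21.8 and 33.0 with MEF2C-ASR on its 2 probes, against 13.0 and 21.5 with control. Casq2, cardiac calsequestrin, the calcium buffer of the store, read 25.002 with MEF2C-ASR and 9.96 with control. Both genes were detected on the MEF2C-ASR array alone, at signals that the control array would not have called, and no fold is given. Casq1, the skeletal calsequestrin, and Cav3, the muscle caveolin, were at background on both arrays.

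Among the enzymes, oxygen carriers and hormones, Ckm, muscle creatine kinase, a MEF2 and MyoD target used as a marker of differentiated muscle, read 49.1 with MEF2C-ASR and 48.0 with control, a difference of 0.07. Nppa, the atrial natriuretic peptide, had a lowest, median and highest signal of 103, 113 and 130 over 7 spots with MEF2C-ASR, against 112, 128 and 156 with control. The Nppa spots overlapped, and the difference was -0.12 (SE 0.08 over spots). A second Nppa probe was at background on both arrays.

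Nppb, the brain natriuretic peptide, read 127 with MEF2C-ASR and 152 with control on its measured probe, a difference of -0.22. Its other probe gave 46.8 with MEF2C-ASR and 38.6 with control and was detected on the MEF2C-ASR array alone. Mb, myoglobin, was at background on both arrays. The 15 probes of the 9 undetected members, Mb and Des included, spanned signals of 4.04 to 16.6 on the MEF2C-ASR array and 7.71 to 28.2 on the control array. Xirp1 was printed under an older name, with 1 probe that read 104.6 with MEF2C-ASR and 110.0 with control, a difference of -0.04.

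**Figure D4:**
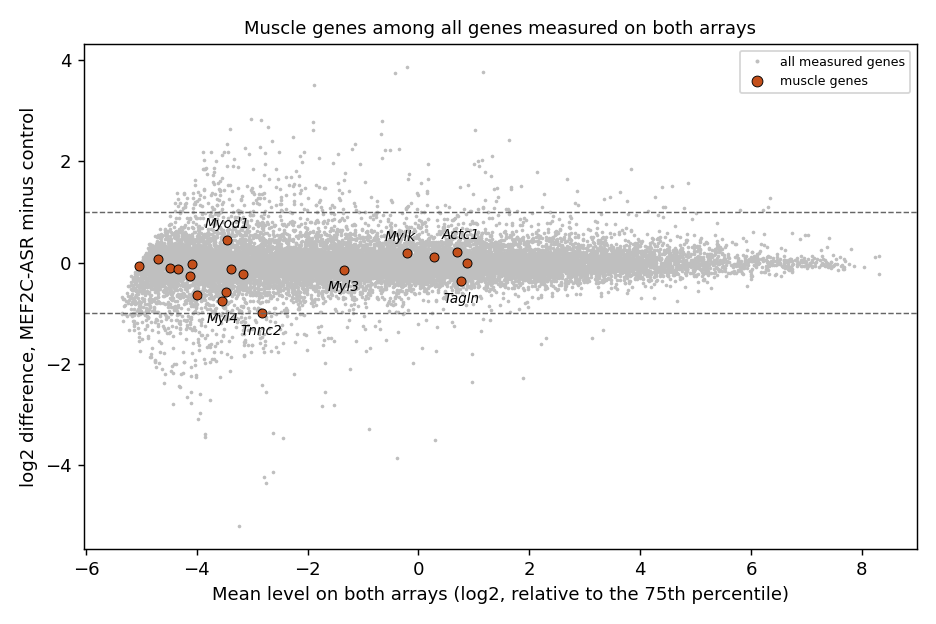
Log2 difference (MEF2C-ASR minus control) against mean level on both arrays for all 16696 measured genes in grey and the 19 measured muscle genes in orange. Dashed lines mark 2-fold, and no muscle gene crosses them: Tnnc2 at -0.99 lies nearest.

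As a check of the insert, Mef2c itself rose to 1969 on the MEF2C-ASR array, against 795 on the control array, a log2 difference of 1.34 on 1 of its 2 probes, while the other probe was at background on both (0.68 with both probes averaged). The sources used here do not place the probe in relation to the deleted part or the insert, so it cannot tell a deleted from an intact transcript. Mef2a differed by 0.31, Mef2b by -0.07 and Mef2d by -0.04. None of these 3 passed 2-fold, and Mef2b and Mef2d had probes of both signs. Of the class IIa histone deacetylases, Hdac5 (0.06), Hdac7 (0.17) and Hdac4 (-0.08) were measured, and Hdac9 was detected on the MEF2C-ASR array alone with 1 of its 4 probes, at 24.9 with MEF2C-ASR against 26.5 with control, both under the control array's limit.

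The wider muscle programme was read through lists of related genes. Of 41 further filament and Z disc genes, 23 were detected on both arrays, 7 with MEF2C-ASR alone, 0 with control alone and 11 on neither array, beside the 59.9%, 8.01%, 0.613% and 31.5% of all genes given above. Of the 23 measured, 0 were at least 2-fold higher (1.75% of all genes) and 2 at least 2-fold lower (1.92%), with a median difference of 0.08. Pdlim3, a PDZ and LIM domain protein of the Z disc, fell to 48.2 with MEF2C-ASR, against 864 with control, a difference of -4.13 on 1 of its 2 probes (-2.98 with normexp, another background correction, and -4.80 with both probes). Tnni3, the cardiac inhibitory troponin, fell to 49.3 with MEF2C-ASR, against 161 with control, as geometric means over its 2 probes, a difference of -1.67. The fall of Tnni3 was under 2-fold with another background correction (-0.88).

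Of 19 genes of excitation-contraction coupling, 14 were detected on both arrays, 1 with MEF2C-ASR alone and 4 on neither (59.9%, 8.01% and 31.5% of all genes), with a median difference of -0.05. Ryr1, the calcium release channel of skeletal muscle, was the only one past 2-fold, at 105 with MEF2C-ASR against 297 with control over its 3 probes, a difference of -1.46. Its brightest probe gave -0.58, and Ryr1 passed 2-fold in 9 of 11 other settings. Ryr1 was lower with MEF2C-ASR while Jph1, which sits beside it in the triad of skeletal muscle, was higher. A link between these genes was not tested.

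Of 18 muscle transcription factors and cofactors, 8 were detected on both arrays, 1 with MEF2C-ASR alone, 2 with control alone and 7 on neither (59.9%, 8.01%, 0.613% and 31.5% of all genes). The 2 with control alone were Tead1, a TEA domain factor that binds muscle promoters, at 4.27 with MEF2C-ASR against 58.7 with control, and Mstn, myostatin, a growth factor that limits muscle mass, at 4.18 with MEF2C-ASR against 160 with control. Tead1 was at least 2.87-fold lower with MEF2C-ASR and Mstn at least 7.83-fold lower. Of the 171 genes detected on the control array alone, 97.1% had such a bound of at least 2-fold, and Tead1 missed it with another background correction (-0.79) and with newer probe names. With that other correction the Mstn bound was -1.61 on the log2 scale, beside -2.97. The 8 measured genes of the list had a median of -0.09, and none of them passed 2-fold.

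The non-muscle counterparts of the contractile proteins, such as the myosins and actins of every cell's cytoskeleton, were nearly all detected. Both arrays detected 19 of 20 (59.9% of all genes), and the MEF2C-ASR array alone 1 (8.01%). None passed 2-fold, and their median difference was 0.03. Myl6, the non-muscle essential light chain, differed by 0.26 and Tagln2, a non-muscle relative of Tagln, by -0.10. Actg1 was not found by name.

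**Figure D5:**
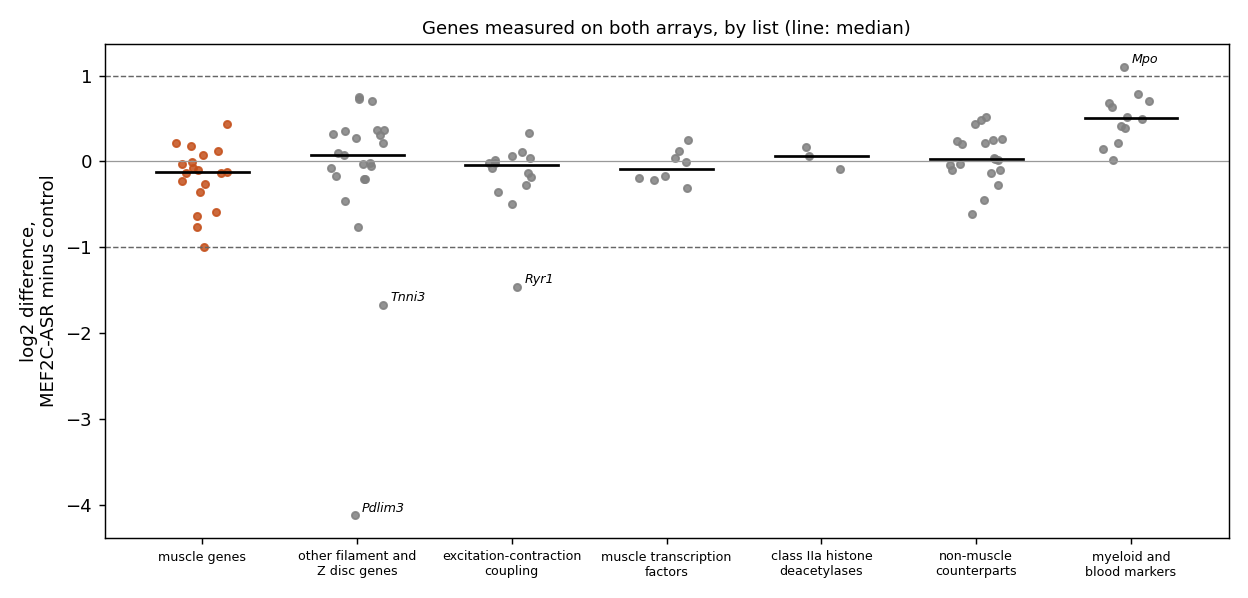
Log2 difference (MEF2C-ASR minus control) of the measured muscle genes and of 6 lists: other filament and Z disc genes, excitation-contraction coupling, muscle transcription factors, class IIa histone deacetylases, non-muscle counterparts, and myeloid and blood markers, with a line at each median. Among the points drawn, Pdlim3, Tnni3 and Ryr1 lie below the lower 2-fold line and Mpo above the upper one, and the medians are -0.12 for the muscle genes and 0.51 for the myeloid and blood markers.

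Markers, which share genes with the members and the lists above, were read to check the cell type and to look for other cells in the cultures. All 12 myeloid and blood markers were detected on both arrays, with a median difference of 0.51, and Mpo, myeloperoxidase, was 2.15-fold higher with MEF2C-ASR (a log2 difference of 0.96 with the spike-in spots). Of 8 smooth muscle markers, 6 were detected on both arrays with a median of -0.06. Of 11 skeletal markers 5 were, with a median of 0.10, and of 8 heart markers 4, with a median of -0.21. Over all genes 59.9% were detected on both arrays. The counts of these muscle lists lay on both sides of that share and by themselves do not show muscle cells in the cultures. Of 9 fibroblast and stromal markers, 4 were detected on both arrays, 1 with MEF2C-ASR alone, 1 with control alone and 3 on neither. Over all genes the shares were 59.9%, 8.01%, 0.613% and 31.5%. The measured stromal markers had a median of 0.42. Col1a1 differed by 0.89 and Col1a2 by -0.06. Thy1 was 14.5-fold higher with MEF2C-ASR, Pdgfrb differed by -1.81 (-0.75 with normexp, another background correction) and Lum was at least 11.0-fold lower with MEF2C-ASR (a log2 bound of -3.46, and -1.80 with normexp), while Dcn, Pdgfra and Postn were undetected. The part of other cell types in the dim muscle signals was not tested, and fewer cells of a type and less RNA per cell cannot be told apart in pooled RNA.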

How the data were processed

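RNA of 2 cultures was read on 1 array each, with 1 colour (Cy3), so groups have 1 sample and no test across samples was possible. The values the authors deposited are linear intensity values, 1 per spot, from Feature Extraction 9.5.1.1 per the file headers. The authors' software had subtracted background, put surrogates in place of the dimmest signals and set the flags used here, per the file headers, and no scaling between arrays had been made. Both arrays lay on 1 slide and in 1 scan.

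Here, spots with a feature outlier flag on either array were left out (365 of 43379), signals were set to the 75th percentile of each array (1240 for MEF2C-ASR, 1272 for control) on a log2 scale, and spots of a probe were averaged. A probe was detected where the flag for well above background was set on most of its spots, and measured where detected on both arrays. No spot was saturated. A gene's value is the mean over its measured probes, called at 2-fold when its probes had 1 sign. Python 3.11.15, numpy 2.4.6, pandas 2.3.3, matplotlib 3.10.9, R 4.3.3 and limma 3.58.1 were used. The steps for measured differences were tested on simulated data in which both arrays had the same flags. Detection on 1 array alone and the bounds could not arise there, so those steps were not tested. The number of arrays limits the precision.

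Members and lists were chosen with earlier results of these data known. Named genes are every member, the MEF2 family and, in each list outside the cell type markers, genes past 2-fold or else the 2 of highest level. Hdac7, Hdac9 and the markers named were added after their values were seen. Of the list genes, 8 were found under older names through the RefSeq table. The alternatives changed scaling, background correction, filters, detection rules and probe names. The normexp model was fitted on spots without outlier flags, since 1 control spot had an extreme local background, a choice made after seeing the data.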

Additional observations from a re-analysis of the deposited data

How the results depend on the processing

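Of the 208 values of single members recomputed over 11 settings, 182 moved by less than the spotting SD and stayed on their side of 2-fold. The other 26 moved further or crossed 2-fold. Jph1 was the only member past 2-fold with the processing above, and its bound kept its sign. The differences of Smyd1, Acta2, Tnni1, Myl3, Tagln, Ckm and Nppb took both signs over the settings. Some settings could not move some values. The deposited intensity values gave the same median and counts as the main processing, and 12 members had only 1 measured probe to be the brightest. Detected members numbered 30 with MEF2C-ASR and 28 with control under the weaker flag for a positive and significant signal (all genes 81.7% and 76.2%). They numbered 20 and 11 where every probe of a gene had to be well above background. The share of all genes under that rule was not counted, so these 2 numbers have no background. They were 24 and 8 where a signal had to exceed the highest negative control spot (all genes 66.2% and 44.7%). That last rule set the limit at 24.6 with MEF2C-ASR and at 165.9 with control, so the rule itself was stricter on the control array. What else enters the gap between 24 and 8 was not tested. The count of members at least 2-fold lower was 1 with the spike-in spots set to 0 and 1 with the 75th percentile taken over probes well above background, in both cases Tnnc2 (-1.14 with the spike-in spots). The count at least 2-fold higher was 2 with all probes kept, namely Jph1 (2.73) and Casq2 (1.36), since that setting takes undetected probes as measured. The members' median lay between -0.27 with the spike-in spots and 0.00 where levels had to reach the 25th percentile, which left 7 members. Over all genes, 292 were higher and 320 lower, against 215 and 437 with the spike-in spots, 162 and 124 with normexp, 804 and 992 with all probes kept and 196 and 105 with the level filter. No paired analysis was possible because each group has 1 array. Most members lie near the detection limit, where spotting error is greatest.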
